A study of Mus musculus with 12 samples.

Results

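The mRNAs of 9 genes that restrain the inflammatory response after it has begun were followed in J774A.1 cells, a mouse monocyte-macrophage line. They were Tnfaip3, Tnip1, Cyld, Zfp36, Zfp36l1, Zfp36l2, Zc3h12a, Rc3h1 and Rc3h2, taken from the tables by gene name. All 9 were found among the 18719 genes listed in the 2 count tables, all 9 were among the 16699 genes listed in both, and all 9 passed the filter on low counts in every comparison. The 12 libraries formed 4 groups of 3: WT unstimulated, ACAT1 KO unstimulated, WT LPS and ACAT1 KO LPS, where LPS was given at 100 ng/ml for 2 hours. The ACAT1 KO lines were made by CRISPR-Cas9 with a guide to an exon of Acat1, which encodes a mitochondrial acetyl-CoA acetyltransferase. The WT lines had received the Cas9-GFP vector with no guide, and all lines were grown out from sorted cells. Each of the 3 replicates of a genotype was a separate line, so differences between genotypes and differences between the particular lines cannot be told apart.

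Inflammatory signalling from Toll-like receptor 4, the LPS receptor, runs through chains of ubiquitin that recruit kinases to the receptor complex and so release NF-κB into the nucleus. A20, the product of Tnfaip3, edits and binds these chains, TNIP1 (ABIN-1) is an adaptor that binds ubiquitin and A20, and CYLD is a deubiquitinase that cuts Lys63-linked and linear chains. A separate group acts on the mRNAs of cytokines. Tristetraprolin (TTP, from Zfp36) and its relatives from Zfp36l1 and Zfp36l2 bind AU-rich elements and recruit the CCR4-NOT deadenylase. Regnase-1, from Zc3h12a, is an endoribonuclease that cuts stem-loops, and Roquin-1 and Roquin-2, from Rc3h1 and Rc3h2, bind stem-loops and recruit deadenylases. Several of these genes are known as NF-κB targets in macrophages, and TTP is known to act on its own mRNA.

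The promoters of 8 of the 9 genes were found in RefSeq (GRCm38.p6), each as 250 bases before to 50 after a start site, and the windows of Tnfaip3, Tnip1, Cyld and Zfp36 are shown because they hold matches to the NF-κB or serum response factor consensus. Capitals mark matches to the κB consensus in the first 3 and to the CArG box, the serum response factor consensus, in Zfp36. Each is written 5′ to 3′ along the gene.
Tnfaip3, chr10:19015361-19015660, minus strand: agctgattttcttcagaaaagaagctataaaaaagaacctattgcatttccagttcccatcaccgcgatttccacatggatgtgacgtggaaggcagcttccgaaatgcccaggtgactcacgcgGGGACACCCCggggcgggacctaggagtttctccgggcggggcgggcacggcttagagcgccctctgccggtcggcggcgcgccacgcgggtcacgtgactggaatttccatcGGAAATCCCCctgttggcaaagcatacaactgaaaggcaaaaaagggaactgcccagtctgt
Tnip1, chr11:54962891-54963190, minus strand: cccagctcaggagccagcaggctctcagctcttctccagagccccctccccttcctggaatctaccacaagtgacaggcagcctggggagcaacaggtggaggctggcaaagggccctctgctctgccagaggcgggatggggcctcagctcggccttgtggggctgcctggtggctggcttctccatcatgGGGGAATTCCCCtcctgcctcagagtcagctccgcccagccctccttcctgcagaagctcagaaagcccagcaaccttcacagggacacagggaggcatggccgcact
Cyld, chr8:88696778-88697077, plus strand: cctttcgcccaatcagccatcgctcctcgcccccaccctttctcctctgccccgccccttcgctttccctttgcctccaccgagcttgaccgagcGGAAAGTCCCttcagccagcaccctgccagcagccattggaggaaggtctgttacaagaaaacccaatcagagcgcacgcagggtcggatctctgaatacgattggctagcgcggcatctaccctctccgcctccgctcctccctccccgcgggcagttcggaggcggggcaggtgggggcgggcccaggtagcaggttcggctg
Zfp36, chr7:28379179-28379478, minus strand: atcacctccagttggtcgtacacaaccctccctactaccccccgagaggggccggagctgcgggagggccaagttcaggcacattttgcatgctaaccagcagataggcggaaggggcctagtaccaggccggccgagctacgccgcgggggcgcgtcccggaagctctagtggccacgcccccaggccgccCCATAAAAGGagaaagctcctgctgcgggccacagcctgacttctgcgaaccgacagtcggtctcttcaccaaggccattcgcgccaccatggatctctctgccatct

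Tnfaip3 had 2 separate κB matches, beginning at -125 and -12 from the start site. The capital run of Tnip1 held 3 overlapping matches to the palindrome, beginning at -58, -57 and -56. Cyld had 1 at -155. A κB match on either strand was present in 4.51% of the 32851 promoters of the same table, and 2 or more in 0.554%. The single CArG match of Zfp36 began at -58, and 1.63% of promoters held one. The windows of Rc3h1, Rc3h2, Zc3h12a and Zfp36l1 held neither. A second, downstream promoter of Tnfaip3 held none of the motifs. The AP-1 motif TGANTCA occurred at -133 in Rc3h1, -136 in Tnfaip3 and -129 in Zfp36l1, and in 7.81% of all promoters. These are matches of letters and not binding sites.

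The other regulatory sequence that bears on this family is the AU-rich heptamer TATTTAT, the core that TTP and its relatives recognise. It is shown for the ZFP36 family, each as a window of 29 bases after the stop codon with the heptamer in capitals (GRCm38, GENCODE).
Zfp36, chr7:28376966-28376994, minus strand: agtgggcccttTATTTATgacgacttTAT
Zfp36, chr7:28376926-28376954, minus strand: agattttatagTATTTATatatattgggt
Zfp36l1, chr12:80108422-80108450, minus strand: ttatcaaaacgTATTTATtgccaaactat
Zfp36l1, chr12:80108381-80108409, minus strand: aattttgttcaTATTTATcgggatgacaa
Zfp36l2, chr17:84184914-84184942, minus strand: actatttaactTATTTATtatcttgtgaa
Zfp36l2, chr17:84184866-84184894, minus strand: tgtccatactgTATTTATcgagtatgatg

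Zfp36, Zfp36l1, Zfp36l2 and Rc3h2 each had 3 heptamers after the stop codon, Rc3h1 had 2, Cyld had 1, and Tnip1 and Zc3h12a had none. Not every heptamer of the ZFP36 family is shown above. Zfp36 carried its heptamers in 774 bases, or 3.88 per kb. Its first 2 lay so close that its first window above ends in the start of its second heptamer, whose own window is not shown. Zfp36l1 had 1.64 per kb and Zfp36l2 had 1.65 per kb, against 0.315 per kb over 20234 genes, of which 26.5% had at least 1. Rc3h2, at 0.581 per kb, and Rc3h1, at 0.279 per kb, had long 3′ ends of 5160 and 7181 bases.

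The libraries held between 56948593 and 167280149 counts, and levels are given below as CPM, the counts scaled to library size, on a single scale for all 12. Acat1 was at 98.8 ± 15.6 CPM (SD, n = 3) in WT unstimulated and 26.8 ± 1.83 CPM in ACAT1 KO unstimulated cells, and at 81.9 ± 15.5 and 19.1 ± 0.743 CPM after LPS. Its log2 fold change was -1.87 ± 0.12 (SE, edgeR adjusted p = 0.00876) without stimulation and -2.08 ± 0.13 (adjusted p = 0.000787) after LPS, so the targeted mRNA was lower but still present in every line labelled KO. All 10 macrophage markers examined were present in every library, with a summed level from 9590.0 to 12222 CPM. Of the T cell, B cell and neutrophil markers found in both tables, the highest reached 5.14 CPM (S100a8), no epithelial marker was listed, and of the fibroblast list only Pdgfra was in both tables. Pdgfra moved with the groups, at 1.19 to 1.67 CPM in WT unstimulated, 1.14 to 1.36 in ACAT1 KO unstimulated, 5.53 to 6.49 in WT LPS and 11.3 to 12.9 in ACAT1 KO LPS, and its part in the results was not tested. Within each group the replicates differed by more than counting noise (chi-square per degree of freedom 31.7 to 269). Noncoding genes lying inside exons of the other strand took 0.0235% to 0.0360% of counts in WT1, WT2 and KO2 unstimulated and no more than 0.00939% in any of the remaining 9 libraries.

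**Figure D1:**
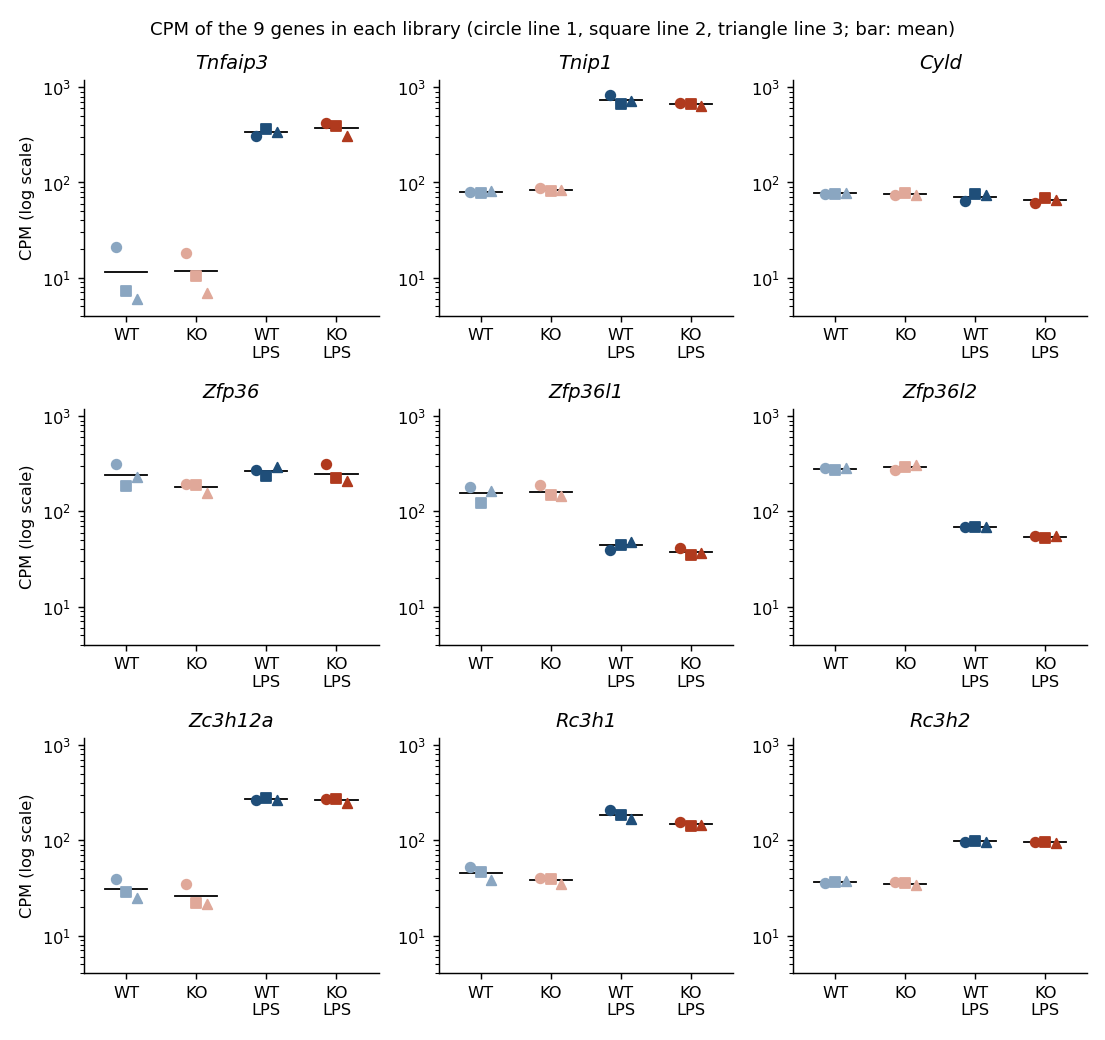
CPM of the 9 genes in each library on a log axis, by group and line, with the group mean as a bar. Tnfaip3, Tnip1, Zc3h12a, Rc3h1 and Rc3h2 stood higher after LPS in every library, Zfp36l1 and Zfp36l2 stood lower in every library, and Zfp36 and Cyld stayed close to their unstimulated level.

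To see how the restraining genes themselves responded to LPS, stimulated and unstimulated libraries were compared within each genotype. In WT cells, 5 of the 9 rose and 2 fell (edgeR, adjusted p under 0.05), where 29.3% of the 16535 genes tested rose and 28% fell. In ACAT1 KO cells, 6 rose and 3 fell, where 29.5% of genes rose and 31.2% fell. The split over all genes was 4850 higher and 4638 lower in WT and 4871 and 5166 in ACAT1 KO, against 3628 and 6681 and 3921 and 6560 with upper-quartile scaling. The 5 that rose in both were Tnfaip3, Tnip1, Zc3h12a, Rc3h1 and Rc3h2, and the 2 that fell in both were Zfp36l1 and Zfp36l2. The median size of the log2 fold change was 2.03 over the 9 genes in WT and 0.465 over all genes tested, and 2.10 against 0.498 in ACAT1 KO. In these bulk libraries a change in RNA per cell cannot be told apart from a change in the share of cells that carry it.

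**Figure D2:**
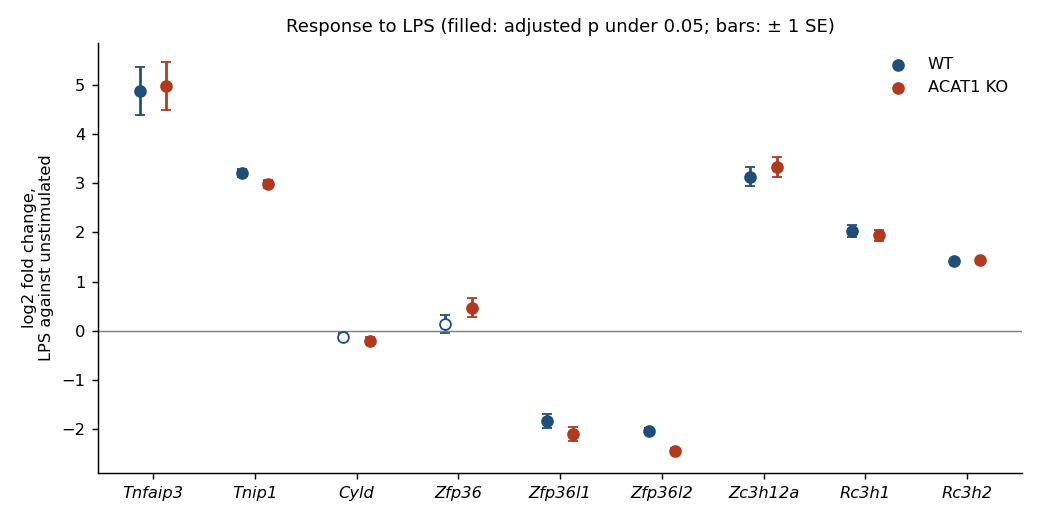
Log2 fold change of each gene after LPS in WT and in ACAT1 KO cells, ± 1 SE, with filled points for an adjusted p under 0.05. Both genotypes had the same sign for each gene, and values ran from 4.97 for Tnfaip3 to -2.43 for Zfp36l2, both in ACAT1 KO.

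Among the regulators of ubiquitin signalling, Tnfaip3 had the steepest rise. In WT it went from 21.2, 7.22 and 6.04 CPM in lines 1, 2 and 3 to 307, 364 and 337 CPM after LPS. In ACAT1 KO it went from 18.2, 10.5 and 6.96 CPM to 424, 393 and 307 CPM. The unstimulated level was highest in line 1 of both genotypes, and stimulated and unstimulated libraries were far apart in each. The rise was 29.5-fold in WT (log2 4.88 ± 0.49 SE, adjusted p = 3.88e-06) and 31.4-fold in ACAT1 KO (log2 4.97 ± 0.49, adjusted p = 2.88e-06). Without WT1 unstimulated, the library with the highest unstimulated level in WT, the WT rise was 50.1-fold (log2 5.65). Its SE was the widest of the 9 genes.

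Tnip1, whose protein works with A20, started higher and varied less. WT lines had 78.6, 78.4 and 81.6 CPM unstimulated and 824, 662 and 721 CPM after LPS. ACAT1 KO lines had 87.6, 82.2 and 83.3 CPM unstimulated and 689.5, 666 and 642 CPM after LPS. The rise was 9.25-fold in WT (log2 3.21 ± 0.08, adjusted p = 1.12e-10) and 7.89-fold in ACAT1 KO (log2 2.98 ± 0.08, adjusted p = 1.42e-10).

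Cyld, the remaining deubiquitinase gene, hardly moved. Its WT levels were 76.2, 76.4 and 78.2 CPM unstimulated and 63.6, 75.4 and 73.1 CPM after LPS. Its ACAT1 KO levels were 73.4, 78.1 and 73.2 CPM unstimulated and 61.0, 69.3 and 65.8 CPM after LPS. Stimulated libraries were below unstimulated ones in both genotypes, by little. The difference was -0.12 ± 0.07 on the log2 scale in WT, which did not pass the test (adjusted p = 0.158), and -0.20 ± 0.07 in ACAT1 KO, which did (adjusted p = 0.0296). The ACAT1 KO call was lost without WT1 or KO2 unstimulated, or without KO1 or KO3 after LPS (adjusted p from 0.0526 to 0.123). With upper-quartile scaling, which moved the median of all genes to -0.23 in WT and -0.17 in ACAT1 KO from -0.02 and -0.03, Cyld passed in WT too, at -0.33 (adjusted p = 0.00154), and stood at -0.11 relative to that median. Of the promoters with a κB match shown above, those of Tnfaip3 and Tnip1 belonged to genes that rose several-fold and that of Cyld did not. Zc3h12a, Rc3h1 and Rc3h2, whose windows held no κB match, rose too, and a link between the matches and the response was not tested.

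The ZFP36 family did not move as a block. Zfp36, the gene of TTP, had 312, 186 and 229 CPM in WT unstimulated and 273, 235 and 292 CPM in WT LPS, and these ranges overlapped. ACAT1 KO unstimulated lines had 195, 189.9 and 154 CPM and ACAT1 KO LPS lines had 311, 227 and 211 CPM, all above the unstimulated ones. The log2 difference was 0.14 ± 0.19 in WT (adjusted p = 0.563), where upper-quartile scaling turned its sign, to -0.07. It was 0.47 ± 0.19 in ACAT1 KO (adjusted p = 0.0471), a 1.39-fold rise at the edge of the threshold. That call was lost in 9 of 12 fits that each left out a library (adjusted p from 0.0524 to 0.220), all but those without WT1 or WT2 unstimulated or KO3 after LPS.

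Zfp36l1 and Zfp36l2, the relatives of TTP, fell in both genotypes. Zfp36l1 had 181, 124 and 166 CPM in WT unstimulated and 39.4, 44.3 and 47.8 CPM in WT LPS. In ACAT1 KO it had 188, 150.3 and 145 CPM unstimulated and 41.3, 35.3 and 36.2 CPM after LPS. This was 3.57-fold lower in WT (log2 -1.84 ± 0.14, adjusted p = 4.95e-07) and 4.29-fold lower in ACAT1 KO (log2 -2.10 ± 0.15, adjusted p = 1.56e-07).

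Zfp36l2 was among the most even of the 9 genes within a group. WT lines had 287, 275 and 282 CPM unstimulated and 68.2, 69.1 and 69.2 CPM after LPS. ACAT1 KO lines had 274, 296 and 307 CPM unstimulated and 55.3, 52.0 and 55.2 CPM after LPS. It fell 4.09-fold in WT (log2 -2.03 ± 0.06, adjusted p = 2.53e-10) and 5.40-fold in ACAT1 KO (log2 -2.43 ± 0.06, adjusted p = 5.51e-11).

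Read per length of exon, the makeup of the family changed. The length was that of all annotated exons of a gene merged. For Zfp36 these merged exons, 3470 bases, covered the gene from end to end, so its level per kb and its share may be understated in every group. Unstimulated WT lines had a family sum of 202 ± 29.4 CPM per kb, of which Zfp36 made up 31.0% to 38.8%, Zfp36l1 23.9% to 27.5% and Zfp36l2 35.1% to 45.1%. After LPS the WT sum was 111 ± 8.91 CPM per kb, and Zfp36 made up 66.3% to 70.8% of it. In ACAT1 KO the sum was 188 ± 8.23 CPM per kb unstimulated and 99.8 ± 16.8 CPM per kb after LPS, and the share of Zfp36 went from a range of 24.7% to 29.0% to one of 68.6% to 75.3%. By this measure the LPS libraries held less family mRNA in all, with most of it from Zfp36. These shares are descriptions, and Zfp36 itself changed little.

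**Figure D3:**
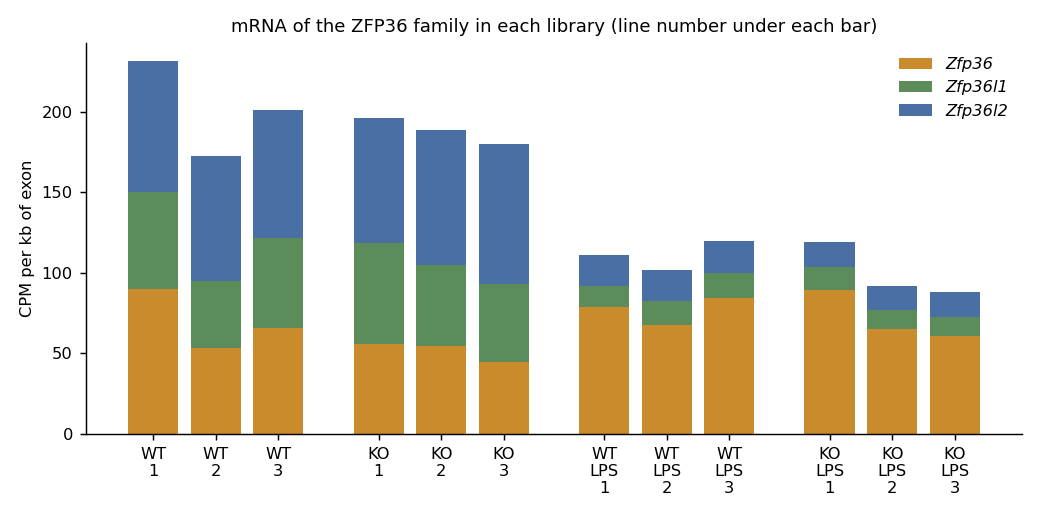
Zfp36, Zfp36l1 and Zfp36l2 as CPM per kb of exon, stacked for each library, with the line number under each bar. The merged exons of Zfp36 covered its whole gene span, so its segments may be understated. The stacks of all 6 LPS libraries, 88.5 to 119.8 CPM per kb, lay below those of all 6 unstimulated libraries, 173 to 231 CPM per kb, through smaller Zfp36l1 and Zfp36l2 segments.

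The genes of the other decay factors rose. Zc3h12a, encoding Regnase-1, had 38.9, 28.6 and 25.04 CPM in WT unstimulated and 263, 280.5 and 267 CPM in WT LPS. In ACAT1 KO it had 34.7, 22.1 and 21.3 CPM unstimulated and 269, 272 and 248 CPM after LPS. As with Tnfaip3, line 1 was the highest of each unstimulated group. The rise was 8.77-fold in WT (log2 3.13 ± 0.20, adjusted p = 8.29e-08) and 10.1-fold in ACAT1 KO (log2 3.33 ± 0.20, adjusted p = 4.44e-08).

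Rc3h1, encoding Roquin-1, had 52.4, 46.1 and 37.9 CPM in WT unstimulated and 206, 186 and 167 CPM in WT LPS. ACAT1 KO lines had 40.4, 39.4 and 34.9 CPM unstimulated and 154, 142 and 145 CPM after LPS. It rose 4.10-fold in WT (log2 2.03 ± 0.12, adjusted p = 3.87e-08) and 3.84-fold in ACAT1 KO (log2 1.94 ± 0.12, adjusted p = 4.64e-08).

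Rc3h2, encoding its paralog Roquin-2, had 35.5, 36.7 and 37.7 CPM in WT unstimulated and 96.2, 99.5 and 96.9 CPM in WT LPS. ACAT1 KO lines had 36.1, 35.3 and 34.0 CPM unstimulated and 95.4, 96.1 and 93.2 CPM after LPS. The rise was 2.66-fold in WT (log2 1.41 ± 0.05, adjusted p = 7.90e-10) and 2.70-fold in ACAT1 KO (log2 1.43 ± 0.05, adjusted p = 5.31e-10). Per kb of exon, Rc3h1 made up 63.6% to 71.9% of the Roquin pair in WT unstimulated and 74.9% to 78.8% in WT LPS. In ACAT1 KO its share was 64.0% to 66.0% unstimulated and 72.0% to 73.7% after LPS.

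The order of the levels per kb of exon also changed with LPS. The place of Zfp36 in it depends on the merged exon length given above. In WT unstimulated cells, Zfp36l2 (79.7 ± 1.68 CPM per kb), Zfp36 (69.8 ± 18.5) and Zfp36l1 (52.4 ± 9.90) led, with overlapping neighbours, followed by Tnip1 (22.5 ± 0.504), Zc3h12a (10.7 ± 2.50), Cyld (6.12 ± 0.0855) and Rc3h1 (4.02 ± 0.646). Rc3h2 (1.87 ± 0.0550) and Tnfaip3 (1.59 ± 1.17) were lowest and overlapped. After LPS, WT cells had Tnip1 first at 208 ± 23.2 CPM per kb, then Zc3h12a at 93.8 ± 3.14, Zfp36 at 76.8 ± 8.45 and Tnfaip3 at 46.5 ± 3.91, none of which overlapped its neighbour. Zfp36l2 followed at 19.5 ± 0.157, also apart, then Rc3h1 and Zfp36l1, at 16.5 ± 1.76 and 14.7 ± 1.41, which overlapped, and Cyld and Rc3h2, at 5.62 ± 0.499 and 4.97 ± 0.0885, which did too. ACAT1 KO cells had the same order after LPS, except that Zc3h12a and Zfp36 overlapped. Unstimulated, their order differed in that Zfp36l1 stood before Zfp36, with overlap, and both lay apart from Zfp36l2.

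To ask whether loss of ACAT1 alters this layer of restraint, ACAT1 KO and WT lines were compared within each state. Unstimulated, none of the 9 genes passed the test, where 0.742% of the 16440 genes tested were higher in ACAT1 KO and 1.17% lower. At an unadjusted p under 0.05 there were 0 of 9 with edgeR, 1 with DESeq2 and 0 with limma-voom, where 19.7%, 20.6% and 19.5% of all genes had such a p. After adjustment DESeq2 and limma-voom called none of the 9 either, and 10.5% and 1.75% of all genes. The log2 differences ran from -0.42 ± 0.19 for Zfp36 (adjusted p = 0.285) to 0.09 ± 0.05 for Tnip1 (adjusted p = 0.393). For Tnip1 all 3 ACAT1 KO lines lay above the WT lines, and the share of all genes with groups apart was not counted. Rc3h1 stood at -0.24 ± 0.12 and Zc3h12a at -0.23 ± 0.23. The unstimulated lines of a group varied more than the LPS ones (a biological coefficient of variation of 0.285 against 0.108 over all genes), and the SE of Tnfaip3, 0.54, was too wide for a change of modest size to be seen.

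After LPS, 2 of the 9 genes were lower in ACAT1 KO and none was higher, where 9.12% of the 16483 genes tested were lower and 5.93% higher. Over all genes 977 were higher and 1504 lower, against 1190 and 1288 with upper-quartile scaling. These were Zfp36l2 and Rc3h1. Zfp36l2, at 68.2, 69.1 and 69.2 CPM in WT and 55.3, 52.0 and 55.2 CPM in ACAT1 KO, was 1.25-fold lower with no overlap (log2 -0.32 ± 0.05, adjusted p = 0.00883). It passed in all 15 alternative fits, at log2 differences from -0.35 to -0.29 and adjusted p from 4.08e-05 to 0.0439. The median of its chromosome, 17, was 0.03 over 874 genes. How many of all genes had their groups apart after LPS was not counted.

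Rc3h1, at 206, 186 and 167 CPM in WT LPS and 154, 142 and 145 CPM in ACAT1 KO LPS, was also 1.25-fold lower with no overlap (log2 -0.32 ± 0.08, adjusted p = 0.0336). This call was less firm. It was lost without WT2 (adjusted p = 0.0883), KO1 (0.0725), KO2 (0.119) or KO3 (0.105) and in the fit that shared the spread over all 12 libraries (0.0671), with the log2 difference between -0.35 and -0.30. Without stimulation the difference was -0.24 ± 0.12, with overlapping lines, and did not pass (edgeR adjusted p = 0.344). Rc3h1 lies on chromosome 1, whose median after LPS was -0.06 over 1104 genes, with 125 lower and 57 higher. The part of the chromosome in its value was not tested. Its paralog Rc3h2 differed by -0.02 ± 0.05 (adjusted p = 0.826), although the ACAT1 KO lines lay just below the WT lines.

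The other genes of the group had log2 differences after LPS from -0.20 to 0.18, and none passed. Tnfaip3 was at 0.18 ± 0.12 (adjusted p = 0.341), Tnip1 at -0.12 ± 0.08 (0.363), Cyld at -0.09 ± 0.08 (0.476), Zfp36 at -0.08 ± 0.15 (0.762) and Zc3h12a at -0.02 ± 0.06 (0.853). Zfp36l1 was at -0.20 ± 0.09 (adjusted p = 0.167). It lies on chromosome 12, where the median over 584 genes was -0.28 and 240 genes were lower against 12 higher, and unstimulated the chromosome's median was -0.26 while Zfp36l1 stood at 0.05 ± 0.16. The part of the chromosome in the value of Zfp36l1 was not tested. Rc3h2 lies on chromosome 2, whose median was 0.19 after LPS, with 294 genes higher and 40 lower. Of the exon bases of Zfp36l1, 55.9% also lie in Gm26669, a lincRNA on the other strand, and whether the counting used strand is not given in the sources used here, while Gm26669 is listed in neither count table.

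**Figure D4:**
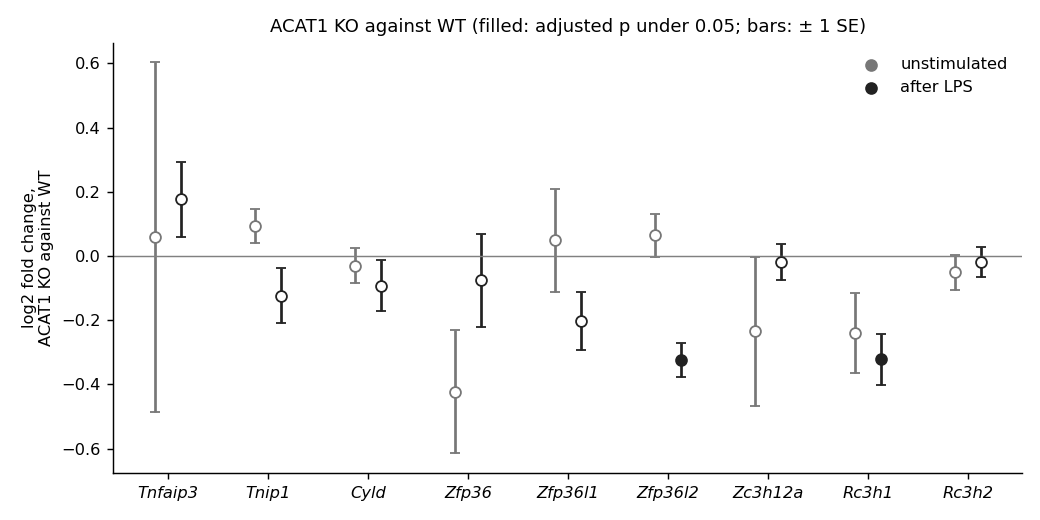
Log2 fold change of ACAT1 KO against WT for each gene, unstimulated and after LPS, ± 1 SE, with filled points for an adjusted p under 0.05. The 2 filled points are Zfp36l2 and Rc3h1 after LPS, both at -0.32.

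Whether the response to LPS itself differed between the genotypes was tested by the interaction term. None of the 9 genes passed, where 0.0484% of the 16535 genes had a larger and 0.139% a smaller value in ACAT1 KO. The nearest was Zfp36l2, at -0.40 ± 0.08 on the log2 scale (unadjusted p = 0.000261, adjusted p = 0.0737), since its fall was 4.09-fold in WT and 5.40-fold in ACAT1 KO. Unstimulated and LPS libraries of the same number were taken as the same line, from their labels and correlations, which the study does not state. With the line so taken as a block, Zfp36l2 did pass, at -0.40 (adjusted p = 0.0446), in a fit that called 1.74% of all genes. At an unadjusted p under 0.05 there was 1 of 9 with edgeR, 2 with DESeq2 and 1 with limma-voom, where 8.92%, 8.36% and 8.81% of all genes had such a p. After adjustment DESeq2 called Zfp36l2 and 2.02% of all genes, and limma-voom none of the 9. The others had interaction values from -0.26 for Zfp36l1 to 0.34 for Zfp36, with adjusted p from 0.568 to 0.995.

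The genes whose levels over the 12 libraries ran most like each of the 9 were found among 11961 genes by Pearson r of log2 CPM. The points share the step between 6 unstimulated and 6 stimulated libraries, and r is given as a description, with no test. Tnfaip3 ran with Nfkbiz and Socs3 (both 0.994), and Zc3h12a with Arid5b and Tet2 (both 0.998). Tnip1 ran with Heatr6 (0.999) and Mbnl2 (0.998), Rc3h1 with Zfp568 and St3gal1 (both 0.996), and Rc3h2 with Icosl and Mob1b (both 0.999). Of the 2 that fell, Zfp36l2 ran with Aatk (0.999) and Hhex (0.998), and Zfp36l1 with Zfand1 (0.994) and Ift81 (0.993). The less responsive genes had looser partners, Cyld with Cdon (0.956) and Dtnb (0.946) and Zfp36 with Cyfip2 (0.928) and Nup210l (0.884).

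The partners of these proteins were then examined. The shares of all genes tested, to be read beside each list below, were 29.3% risen and 28% fallen after LPS in WT. Between genotypes after LPS, 5.93% were higher and 9.12% lower in ACAT1 KO, with a median of -0.004. Of 18 genes for the ubiquitin machinery that A20 and CYLD work with, 15 rose after LPS in WT and none fell, with a median log2 fold change of 0.58 against -0.02 over all genes. Malt1, the paracaspase that cleaves A20 and CYLD, went from 22.8 ± 1.49 to 373 ± 30.0 CPM (log2 4.03 ± 0.10, adjusted p = 7.70e-11). Tnip3, the gene of the A20-binding protein ABIN-3, went from 70.1 ± 7.78 to 351 ± 28.1 CPM (log2 2.33 ± 0.13, adjusted p = 2.96e-08). After LPS, 1 of the 18 was higher and 2 lower in ACAT1 KO than in WT, with a median of 0.01. Otud7b, encoding Cezanne, a deubiquitinase related to A20, was at 77.1 ± 10.2 CPM in WT LPS and 36.7 ± 2.32 CPM in ACAT1 KO LPS (log2 -1.05 ± 0.10, adjusted p = 0.00226). Ripk1, a kinase that carries the ubiquitin chains A20 edits, was lower at -0.22 ± 0.06 (adjusted p = 0.0400), and Rbck1, encoding the HOIL-1 subunit of the linear ubiquitin ligase, was higher at 0.36 ± 0.08 (adjusted p = 0.0227). Rbck1 lies on chromosome 2, where the median was 0.19. With a library left out, the call of Rbck1 was lost without WT2, KO2 or KO3 (adjusted p from 0.0702 to 0.0792) and that of Ripk1 in 5 of 6 fits, all but that without WT3 (0.0607 to 0.135). Otud7b was lower unstimulated too, at 32.0 ± 3.51 CPM in WT and 16.8 ± 0.888 CPM in ACAT1 KO (log2 -0.92 ± 0.09, edgeR adjusted p = 0.0162). Its interaction value was -0.14 ± 0.15 (adjusted p = 0.891).

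Among 23 of 24 other feedback inhibitors that were tested, 15 rose and 6 fell in WT, with a median of 1.36. Cish and Socs1, suppressors of cytokine signalling, stood highest in fold, from 0.696 ± 0.151 to 61.8 ± 16.9 CPM for Cish (log2 6.45 ± 0.26, adjusted p = 2.89e-09) and from 1.09 ± 0.234 to 55.3 ± 11.1 CPM for Socs1 (log2 5.67 ± 0.20, adjusted p = 1.14e-09). Dusp1, encoding a phosphatase that switches off p38 and other MAP kinases, fell from 488 ± 208 to 66.4 ± 30.9 CPM (log2 -2.88 ± 0.35, adjusted p = 2.27e-05). Tnfaip8l2, encoding TIPE2, fell from 70.0 ± 7.05 to 13.2 ± 2.42 CPM (log2 -2.41 ± 0.13, adjusted p = 2.94e-08). After LPS, 4 were higher and 2 lower in ACAT1 KO, with a median of -0.05. Il10 was higher (0.776 ± 0.0236 against 4.03 ± 2.13 CPM, log2 2.39 ± 0.35, adjusted p = 0.00642). Its ACAT1 KO LPS lines had 6.44, 3.23 and 2.42 CPM, and without KO1 the log2 difference was 1.89 (edgeR adjusted p = 0.00874). Il1rn, the gene of the interleukin-1 receptor antagonist, was higher too (155 ± 3.17 against 254 ± 28.3 CPM, log2 0.73 ± 0.08, adjusted p = 0.00269). Inpp5d, encoding the phosphatase SHIP1, was lower at -0.52 ± 0.08 (adjusted p = 0.00645), and Trib1, a pseudokinase gene, at -0.32 ± 0.07 (adjusted p = 0.0190). The call of Trib1 was lost without KO1, KO2 or KO3 (adjusted p from 0.0508 to 0.0743). Il1rn lies on chromosome 2.

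The ZFP36 proteins and Roquins recruit CCR4-NOT. Of 19 genes for this complex and for other deadenylases and related proteins, 12 rose and 3 fell in WT, with a median of 0.35. Noct, encoding nocturnin, went from 9.29 ± 0.492 to 139 ± 11.2 CPM (log2 3.90 ± 0.14, adjusted p = 1.14e-09), and Cnot4, an E3 ligase gene of the complex, from 19.5 ± 2.66 to 78.6 ± 6.07 CPM (log2 2.01 ± 0.10, adjusted p = 1.21e-08). Tob1, encoding an adaptor of the deadenylase, fell at -0.45 ± 0.09 (adjusted p = 0.000911), and Cnot6l, encoding a catalytic subunit, at -0.35 ± 0.09 (adjusted p = 0.00453). After LPS, none was higher and 4 were lower in ACAT1 KO, with a median of -0.13. Pan2, a catalytic deadenylase gene, was at 22.4 ± 1.36 CPM in WT and 15.7 ± 0.881 CPM in ACAT1 KO (log2 -0.49 ± 0.07, adjusted p = 0.00663), and Tob1 at -0.37 ± 0.07 (adjusted p = 0.0126). The call of Tob1 was lost without KO1 or KO2 (adjusted p = 0.0515 and 0.0590). Unstimulated, 2 of the 19 were already lower in ACAT1 KO and none was higher. Of all genes tested unstimulated, 1.17% were lower and 0.742% higher. Pan2 was then at 19.6 ± 0.902 CPM in WT and 13.6 ± 0.776 CPM in ACAT1 KO. It lies on chromosome 10, where 135 genes were lower and 23 higher after LPS.

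Decapping enzymes and exonucleases finish the decay of deadenylated mRNA. Of 24 genes, 11 rose and 2 fell in WT, with a median of 0.15. Dcp2, the decapping enzyme gene, rose (log2 1.89 ± 0.13, adjusted p = 1.76e-07) with its cofactor gene Dcp1a (1.68 ± 0.07, adjusted p = 3.26e-09). Dcp1b fell at -0.58 ± 0.09 (adjusted p = 0.000221) and Dcps, encoding the scavenger decapping enzyme, at -0.28 ± 0.07 (adjusted p = 0.00337). After LPS only Upf1, the helicase of nonsense-mediated decay that Regnase-1 works with, passed between the genotypes, lower in ACAT1 KO at -0.18 ± 0.05 (adjusted p = 0.0381), and it did not pass in any of the 6 fits that left out a library (adjusted p from 0.0676 to 0.136).

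Of 20 other genes that act on mRNA stability, 18 were tested, and 13 rose and 2 fell in WT, with a median of 0.41. Zc3h12c, a relative of Zc3h12a, went from 16.4 ± 1.40 to 442 ± 15.4 CPM (log2 4.75 ± 0.09, adjusted p = 2.73e-11), close to the steepness of Tnfaip3. N4bp1, an endonuclease gene, went from 79.6 ± 4.31 to 439 ± 14.7 CPM (log2 2.46 ± 0.09, adjusted p = 1.79e-09). Tia1, encoding an AU-binding protein, fell from 53.6 ± 1.06 to 26.8 ± 1.33 CPM (adjusted p = 0.00142), and Mapk14, encoding the p38 kinase upstream of TTP phosphorylation, at -0.59 ± 0.08 (adjusted p = 3.13e-05). After LPS, 1 was higher and 3 lower in ACAT1 KO, with a median of -0.03. The 14-3-3 gene Ywhab, on chromosome 2, was higher at 0.29 ± 0.05 (adjusted p = 0.0119). Pum2, on chromosome 12, was lower at -0.38 ± 0.06 (adjusted p = 0.00784). The 14-3-3 gene Ywhaz, on chromosome 15, was also lower, at -0.29 ± 0.08 (adjusted p = 0.0425). With a library left out, the call was lost without KO2 for Ywhab (adjusted p = 0.0559) and in 5 of 6 fits for Ywhaz, all but that without WT3 (0.0715 to 0.142).

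Last, 24 mRNAs known to be bound by TTP, Regnase-1 or Roquin were followed. Il10, Nfkbiz and Nfkbid were also on the list of other feedback inhibitors above, so their calls count in both lists. In WT, 13 of the 19 tested rose after LPS and 1 fell, with a median of 1.31. Il6 went from 0.727 ± 0.209 to 84.0 ± 24.3 CPM (log2 6.84 ± 0.36, adjusted p = 1.87e-08) and Il1b from 3.15 ± 0.339 to 219 ± 67.9 CPM (log2 6.12 ± 0.42, adjusted p = 1.72e-07). Plk3, a kinase gene, fell at -1.11 ± 0.23 (adjusted p = 0.00133). After LPS all 24 could be tested between genotypes, and 9 were higher and 1 lower in ACAT1 KO, with a median of 0.52. Over all genes tested 5.93% were higher and 9.12% lower, with a median of -0.004. Besides Il10, Il1b, on chromosome 2, was higher, at 219 ± 67.9 CPM in WT and 593 ± 168 CPM in ACAT1 KO (log2 1.46 ± 0.27, adjusted p = 0.0130). The exception was Ier3, an immediate early gene, at 80.9, 29.0 and 30.3 CPM in WT LPS and 21.4, 11.002 and 17.5 CPM in ACAT1 KO LPS. It was lower at -1.47 ± 0.42 (adjusted p = 0.0496), with line WT1 far above the rest. Without WT1 the difference was -0.82 (adjusted p = 0.0509), and the call was lost in 5 of 6 fits that left out a library, all but that without WT3 (adjusted p up to 0.149). The call of Il1b was lost without KO2 (adjusted p = 0.0506). Unstimulated, none of the 19 tested passed between the genotypes, and their median was 0.14. Of all genes tested unstimulated, 0.742% were higher and 1.17% lower. For the interaction none of the 19 passed either, with a median of 0.004, where 0.0484% of all genes were higher and 0.139% lower. The share of mRNA synthesis and decay in these levels cannot be told apart in counts of steady-state RNA.

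**Figure D5:**
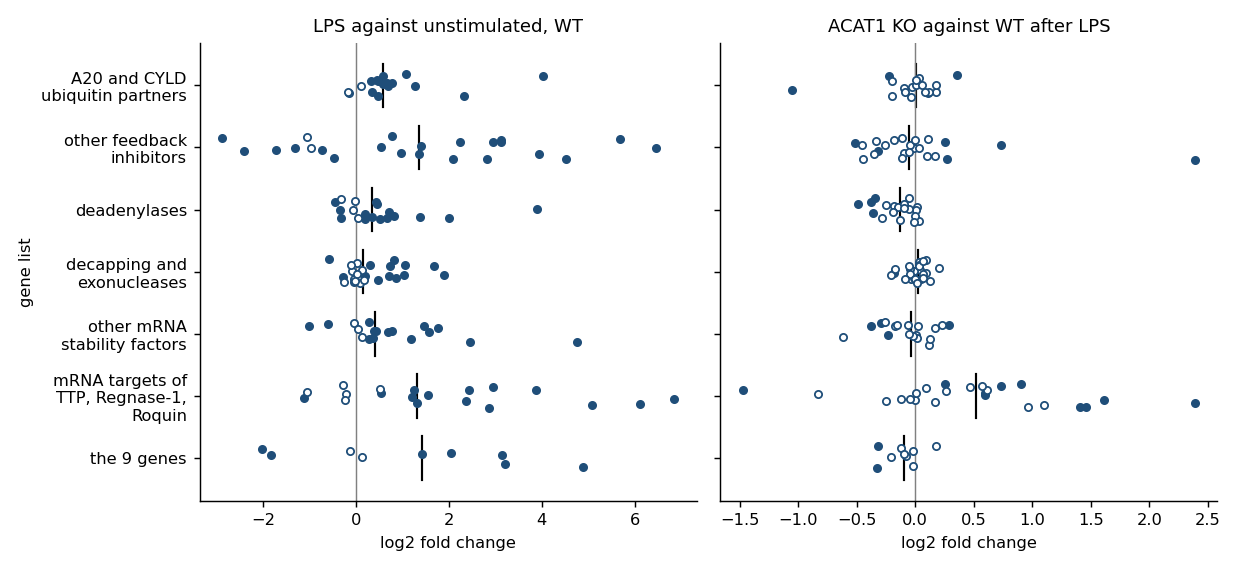
Log2 fold changes of the genes of the 6 lists and of the 9 genes, after LPS in WT (left) and between ACAT1 KO and WT after LPS (right), 1 point a gene, filled for an adjusted p under 0.05, with the list's median as a bar. On the right the target list has its median at 0.52, and the 9 genes at -0.09, where all genes tested had -0.004.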

How the data were processed

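RNA-seq libraries of J774A.1 lines were analysed from the whole-number counts per gene that the authors deposited in 2 tables, unstimulated and LPS, with 6 libraries each. Per the labels and the study's methods, reads from a directional kit were trimmed with Trimmomatic 0.33 and aligned to GRCm38 with HISAT2, followed by StringTie. The step that gave whole counts and its use of strand are not given in the sources used here, nor is whether both tables were sequenced together, so a run difference and LPS cannot be told apart. Repeated entries (59 and 57) were removed, and genes with a blank symbol (5 and 7) were kept under their Ensembl ID. The 12 columns of log2 values and the authors' columns of fold changes and p-values were not used.

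Counts were tested with edgeR 4.0.16 quasi-likelihood fits (R 4.3.3; TMM scaling, filterByExpr, Benjamini-Hochberg adjusted p under 0.05). Genotypes were compared within each table (16440 and 16483 genes tested). LPS responses and the interaction came from a single fit of all 12 libraries on genes of both tables (16535 tested). Alternatives used DESeq2 1.42.0, limma-voom 3.58.1, other scalings, filters and designs, and each library left out. CPM are on 1 TMM scale, and log2 CPM had a prior count of 2. The fits were tested on simulated data. Depth was 56948593 to 167280149 counts, which leaves line-to-line spread rather than counting error as the main limit.

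All 9 genes are described. From each list, compared after LPS in WT and between genotypes after LPS, at most 2 genes that rose most and 2 that fell most are named, taken from the calls of genes averaging 1 CPM or more, and the 2 genes most alike each member. The members and lists were chosen with earlier results of these data known. Libraries of the same number in the 2 states were taken as 1 line, a pairing that the study does not state. Deviations from the group means of same-numbered unstimulated and LPS libraries of a genotype correlated at r from 0.139 to 0.454, and those of different numbers at r from -0.344 to 0.0977. Gene positions and exon lengths came from GENCODE (GRCm38), in which 18691 of 18719 listed genes were found, and promoters from RefSeq (GRCm38.p6). The heptamers of Tnfaip3 are not reported here.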

Additional observations from a re-analysis of the deposited data

Results flagged for a closer look

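The fall of Zfp36l2 after LPS differed between the genotypes when the line was a block. The interaction was -0.40 on the log2 scale (edgeR adjusted p = 0.0446), and -0.40 without the block (adjusted p = 0.0737). Over 21 alternative fits it lay between -0.45 and -0.34, with adjusted p from 0.000322 to 0.243, and 3 of the 21 passed. All 3 ACAT1 KO lines lay below all 3 WT lines after LPS (52.0 to 55.3 CPM against 68.2 to 69.2 CPM), while the unstimulated ranges overlapped (274 to 307 CPM against 275 to 287 CPM). The share of all genes with groups apart after LPS was not counted.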

How the results depend on the processing

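Over 864 recomputed values for the 9 genes, 813 kept their direction and side of the threshold, 23 lost a call, 6 gained one and 22 turned sign, none of the last from or to a call. The rises of Tnfaip3, Tnip1, Zc3h12a, Rc3h1 and Rc3h2 and the falls of Zfp36l1 and Zfp36l2 after LPS passed in all 22 alternative fits of each genotype. The lower Zfp36l2 of ACAT1 KO after LPS passed in all 15.

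The number of the 9 genes called after LPS between genotypes was 1 in place of 2 with all 12 libraries in the fit, and ranged from 1 to 2 over the fits that left out a library. The interaction called 1 of the 9 (Zfp36l2) with DESeq2 (-0.39), with the replicate block (-0.40) and with the block and a term for the 3 libraries with more opposite-strand counts (-0.42). The block changed no other call among the 9, and with that added term Zfp36 passed in WT at 0.36 (adjusted p = 0.0333). Same-numbered WT and ACAT1 KO libraries are different lines that share only a number. Their deviations correlated at r from -0.412 to 0.745, and 4 of 6 libraries in each state matched their own number best.

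Over all genes, 314 were called unstimulated, against 475 with at least 10 counts in every library, 1721 with DESeq2, 1353 with all 12 libraries, 151 with the replicate block, 664 with the opposite-strand term, and 7 to 522 with a library left out. After LPS, 2481 became 867 to 2245 with a library left out. The interaction's 31 became 334 with DESeq2, 11 with limma-voom, 288 with the replicate block, 457 with block and opposite-strand term, and 2 to 41 with a library left out. Leaving out both lines numbered 1, a choice made after seeing the data because Tnfaip3 and Zc3h12a were highest in them, gave 0 genes unstimulated with edgeR (2172 at an unadjusted p under 0.05; no other tool was run on this subset), 1410 after LPS and 5 for the interaction. Among the 9 it kept Zfp36l2 lower after LPS, ended the call of Rc3h1 (-0.27, adjusted p = 0.0620), let Zfp36l1 pass (-0.34, adjusted p = 0.0327) and ended those of Zfp36 and Cyld in ACAT1 KO, where 7 in place of 9 were called. Upper-quartile scaling changed the split of interaction calls over all genes to 10 higher and 13 lower, from 8 and 23.

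With a library left out, values that turned sign at least once spanned, unstimulated, -0.40 to 0.84 for Tnfaip3 and -0.095 to 0.15 for Zfp36l1. Between genotypes after LPS they spanned -0.041 to 0.024 for Zc3h12a and -0.26 to 0.035 for Zfp36, and in WT after LPS -0.021 to 0.34 for Zfp36. In the interaction they spanned -0.66 to 0.54 for Tnfaip3, -0.17 to 0.023 for Rc3h1 and -0.0021 to 0.079 for Rc3h2. Upper-quartile scaling turned Zc3h12a and Rc3h2 (both 0.011) between genotypes after LPS and Zfp36 (-0.070) in WT. The interaction of Tnfaip3 turned to -0.12 with limma-voom, -0.017 with the replicate block, -0.15 with block and opposite-strand term, and -0.37 without the lines numbered 1. The cause of these turns was not tested.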
